A study of Homo sapiens with 2 samples.

Results

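Cleavage and polyadenylation factors are the subject here, as 10 genes: CPSF1, CPSF2, CPSF3, CPSF4, CPSF6, CSTF1, CSTF2, CSTF3, NUDT21 and PCF11. They were chosen by name, and each of the 10 symbols matched 1 of the 60664 Ensembl genes in the deposited count tables. The study is an RNA-seq series from HEK293T cells, a human line derived from embryonic kidney that carries the large T antigen of a simian virus, made alongside a method for mapping R-loops. Both libraries, replicate 1 and replicate 2, are labelled wild type and untreated and form 1 group. The cell line field of replicate 2 reads HEK294T while its title reads HEK293T. Whether each library had its own culture is not stated by any label, which leaves technical spread as all that the replicates may show, and 1 group gives no test between conditions.

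The ends of nearly all messenger RNAs are made by cutting the nascent transcript and adding a poly(A) tail. A multi-subunit complex reads the hexamer AAUAAA upstream of the cut and a U-rich or GU-rich element downstream of it. The cleavage and polyadenylation specificity factor holds the hexamer and the endonuclease, the cleavage stimulation factor holds the downstream element, cleavage factor Im binds UGUA upstream, and cleavage factor IIm links cutting to the end of transcription. The relative amounts of these factors are known to shift the choice between alternative sites in the same gene.

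The annotated end of 1 principal transcript of each member was searched for this signal, which stands just before the poly(A) tail. Other ends of the same genes were not searched. Which ends the oligo(dT) primer of these libraries reached was not tested. In the last 50 bases of the principal transcript in GENCODE 29, AATAAA was found in 7 of the 10 members and ATTAAA in 1, while CPSF1 and PCF11 had neither. Among 19510 protein-coding transcripts searched in the same way, on the transcript strand, 59.8% had AATAAA, 13.4% had ATTAAA without it and 26.8% had neither. The 8 windows of 30 bases follow as DNA, 5′ to 3′, with the hexamer in capitals and with GRCh38 positions.
CPSF4 (chr7:99457342-99457371, + strand): ttttatgaaatggATTAAAgcttgtttttt
CPSF2 (chr14:92172113-92172142, + strand): tagcaattgtgaAATAAAcagattctgaag
CPSF3 (chr2:9473062-9473091, + strand): tttgttacctaaAATAAAatgcattcgttt
NUDT21 (chr16:56429138-56429167, - strand): tattgtcatttcAATAAAaaatatttgaaa
CPSF6 (chr12:69274324-69274353, + strand): tcttgtattgaaAATAAAacaaacttttga
CSTF1 (chr20:56406330-56406359, + strand): cgtgatttctgaAATAAActttatatacaa
CSTF2 (chrX:100840889-100840918, + strand): tctgtgacttgaAATAAActttgaacacaa
CSTF3 (chr11:33084586-33084615, - strand): agtcctttaaaaAATAAAaggattcagaaa

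The hexamer lay between 11 bases (CPSF4) and 22 bases (CPSF3 and CSTF1) before the annotated transcript end. TGTA, the DNA form of the element that NUDT21 protein binds, occurred in the last 100 bases of CSTF3 in 2 places and of CPSF1, CPSF3, NUDT21, CPSF6, CSTF2 and PCF11 in 1, and in none of CPSF4, CPSF2 and CSTF1. At least 1 TGTA stood in that window in 50.6% of all protein-coding transcripts and at least 2 in 18.3%. A match says only that these letters are present, and the element downstream of the cut lies outside the transcripts and was not analysed here.

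The libraries held 18011638 counts in replicate 1 and 18575058 in replicate 2. Genes reported in HEK293 cells were all detected, 9 of 9. Detection was set at 1 CPM (counts divided by the library's total, on a common scale) or more in both libraries. That limit was met by 65.9% of all protein-coding genes. Of 10 markers of liver, endothelium, blood, fibroblasts, kidney tubule and podocyte and adrenal, 0 were detected, although the globin gene HBB had 0 counts in replicate 1 and 38 in replicate 2. The viral genes that define the line have no entry in the tables and were not analysed here. The common biological coefficient of variation between the libraries, from edgeR with an intercept alone, was 15.6%.

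All 10 members were detected, where 65.9% of the 19890 protein-coding genes were. They held 11804 counts in replicate 1 and 10505 in replicate 2, a share of 0.0655% (exact 95% binomial interval 0.0644 to 0.0667) and 0.0566% (0.0555 to 0.0576) of the totals, where intervals cover counting error only. In TPM, which divides counts by exon length and scales to a common total, the members had a median of 23.2 (25.6 in replicate 1 and 20.7 in replicate 2), against 2.88 for all protein-coding genes and 8.52 for the 13112 of these that were detected. Every member stood above the median of all protein-coding genes, while CPSF2, at 6.79 TPM in replicate 1 and 5.20 in replicate 2, stood below that of the detected ones. In mean TPM the highest, CPSF1, and the lowest, CPSF2, differed 6.38-fold. The genes at the ends moved with the length used. They were CPSF4 (74.7) and CPSF2 (5.85) by TPM with the longest coding transcript, and CPSF1 (115) and CPSF3 (30.0) in CPM. Across the 10 members, exon length against mean TPM had a Pearson's r of -0.60 and a Spearman's rho of -0.43. Against mean CPM these were 0.07 and 0.45. Whether dividing by exon length suits libraries primed with oligo(dT) was not tested.

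**Figure D1:**
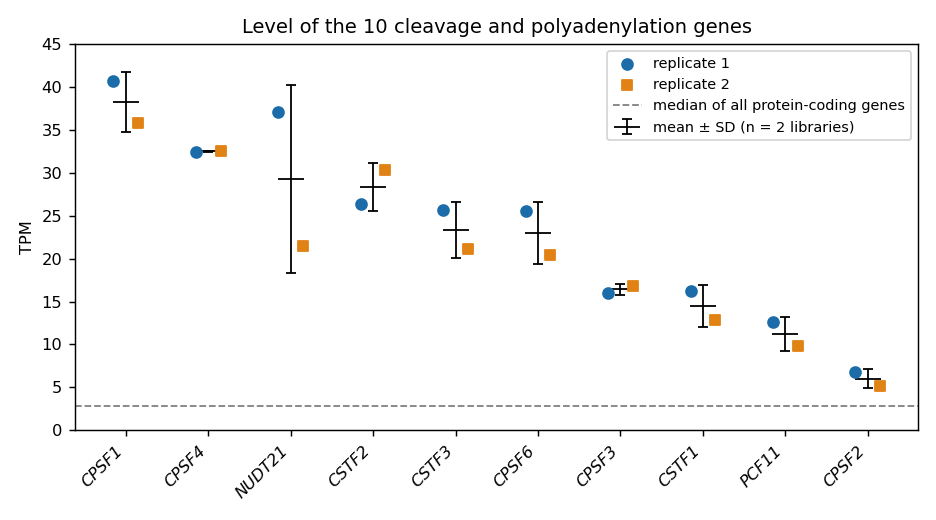
TPM of the 10 genes in replicate 1 (circles) and replicate 2 (squares), with the mean and SD of the 2 libraries as bars and the median of all protein-coding genes (2.88 TPM) as a dashed line. CPSF1 was highest and CPSF2 lowest in both libraries, and NUDT21 had the widest gap, 37.0 TPM in replicate 1 and 21.5 in replicate 2.

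By mean TPM, CPSF1 and CPSF4, the members that belong to the module recognising the poly(A) signal, stood highest. In replicate 1, however, NUDT21 (37.0 TPM) stood above CPSF4. CPSF1 encodes the large scaffold subunit and lies on chromosome 8 from 144393229 to 144409335. Its counts were 2150 in replicate 1 and 2037 in replicate 2, or 119 and 110 CPM, and its level was 40.7 and 35.8 TPM (mean 38.2 ± 3.46, SD, n = 2). Of the protein-coding genes, 88.5% lay below it. CPSF4, the zinc finger subunit that contacts the hexamer together with WDR33, lies on chromosome 7 from 99438922 to 99457373. It had 1202 and 1300 counts, or 66.7 and 70.0 CPM, and 32.4 and 32.5 TPM (32.5 ± 0.0967). In TPM the libraries were closest for CPSF4 among the members. Other genes overlap 4.04% of the exonic bases of CPSF1 and 7.90% of those of CPSF4. CPSF4 shares 157 bases with ATP5MF-PTCD1 on the opposite strand, which had 5745 counts in replicate 1 and 6746 in replicate 2. Among the overlapping genes, MIR939, which lies inside an exon of CPSF1, was listed with 252 and 167 counts, and the counting gives no way to tell its own reads from those of CPSF1.

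Both subunits of the cleavage module among the members were lower. CPSF3 encodes the endonuclease that cuts the transcript and lies on chromosome 2 from 9423651 to 9473101. It had 514 and 584 counts in replicates 1 and 2, or 28.5 and 31.4 CPM, and 16.0 and 16.9 TPM (16.4 ± 0.621, SD, n = 2). CPSF2 encodes a protein of the same family that is held to lack the catalytic activity, and lies on chromosome 14 from 92121969 to 92172145. It had 803 and 663 counts, or 44.6 and 35.7 CPM, and 6.79 and 5.20 TPM (5.996 ± 1.12). CPSF2 therefore had more reads than CPSF3 in both libraries and the lower level per length in both. The deposited exon length of CPSF2 is 13563 bases and that of CPSF3 3686, and neither shares exonic bases with another gene.

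Cleavage factor Im was represented by NUDT21, the small subunit that binds UGUA, and CPSF6, a large subunit that pairs with it. NUDT21, on chromosome 16 from 56429133 to 56452199, was counted 1916 times in replicate 1 and 1198 times in replicate 2, or 106 and 64.5 CPM, and 37.0 and 21.5 TPM (29.3 ± 10.99, SD, n = 2). CPSF6, on chromosome 12 from 69239569 to 69274358, had 1796 and 1545 counts, or 99.7 and 83.2 CPM, and 25.6 and 20.4 TPM (23.0 ± 3.64). Replicate 1 was the higher library for both genes. The value of NUDT21 is uncertain, since 45.9% of its exonic bases are shared with a gene on the same strand that has no symbol in the tables used (ENSG00000288725). That gene had 1288 counts in replicate 1 and 1428 in replicate 2, the opposite order to NUDT21. CPSF6 shares 0.770% of its bases with the microRNA gene MIR1279, which had 31 and 0 counts.

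All 3 subunits of the cleavage stimulation factor among the members lay within a range of 1.95-fold in mean TPM, a range that also holds the paralogue CSTF2T. CSTF2, the RNA-binding subunit that contacts the downstream element, lies on chromosome X from 100820359 to 100841520. It had 639 and 790 counts in replicates 1 and 2, or 35.5 and 42.5 CPM, and 26.4 and 30.3 TPM (28.4 ± 2.76, SD, n = 2). CSTF3, which bridges the other subunits as a dimer, lies on chromosome 11 from 33077188 to 33162371 and had 1011 and 893 counts, 56.1 and 48.1 CPM, and 25.7 and 21.1 TPM (23.4 ± 3.27). CSTF1, a WD-repeat subunit, lies on chromosome 20 from 56392371 to 56406362 and had 678 and 576 counts, 37.6 and 31.0 CPM, and 16.2 and 12.8 TPM (14.5 ± 2.42). CSTF2 was higher in replicate 2, while CSTF3 and CSTF1 were higher in replicate 1. CSTF3 shares 14.5% of its exonic bases with TCP11L1 and LINC00294 on the opposite strand, and CSTF1 and CSTF2 share none.

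PCF11, the subunit of cleavage factor IIm that binds the tail of RNA polymerase II, was among the 2 lowest members in TPM. It lies on chromosome 11 from 83156988 to 83187451 and had 1095 and 919 counts in replicates 1 and 2, or 60.8 and 49.5 CPM, and 12.6 and 9.83 TPM (11.2 ± 1.97, SD, n = 2). Its exons share 18.9% of their bases with other genes, chiefly PCF11-AS1. All 1516 bases of PCF11-AS1 lie inside PCF11 on the opposite strand, and it was listed with 113 and 50 counts. The strand setting of the counting is not given in the sources used here, so reads of the gene and of its antisense partner cannot be told apart.

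The order by mean TPM was CPSF1, CPSF4, NUDT21, CSTF2, CSTF3, CPSF6, CPSF3, CSTF1, PCF11 and CPSF2. The 2 library values overlapped between 4 of the 9 neighbouring pairs: CPSF4 and NUDT21, NUDT21 and CSTF2, CSTF3 and CPSF6, and CPSF3 and CSTF1. These neighbours did not differ beyond their spread, and the other 5 were not tested. NUDT21 was in place 2 in replicate 1 and place 4 in replicate 2. Dividing by the length of the longest protein-coding transcript in place of the deposited exon length exchanged CPSF1 and CPSF4 and left the other 8 in place. CPSF4 has a deposited length of 4252 bases and a longest coding transcript of 1738. Without length correction, only CPSF1 and NUDT21 kept their place.

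**Figure D2:**
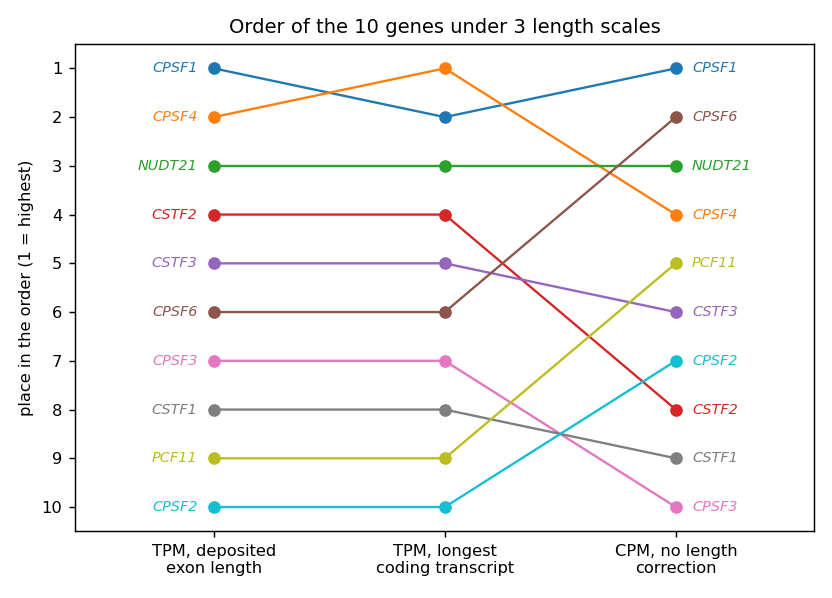
Place of each of the 10 genes, 1 being the highest mean over both libraries, by TPM with the deposited exon length (left), TPM with the longest coding transcript (middle) and CPM without length correction (right). Lines join a gene's places; CPSF1 and CPSF4 change places between the left and middle columns, and CPSF6 moves from place 6 to 2 in CPM while CSTF2 moves from 4 to 8.

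Ratios between genes within a library do not depend on how the libraries are scaled, and they were formed for 10 pairs of partners and relatives. CSTF2 exceeded its paralogue CSTF2T, an intronless relative of the same role, by 1.59-fold in replicate 1 and 2.12-fold in replicate 2 in TPM. In CPM the folds were 1.07 and 1.43. The principal transcripts of CSTF2 and CSTF2T share no stretch of 50 bases with each other or any other gene in the annotation, so reads of that length without mismatches would not be common to both. CPSF6 against CPSF7, the alternative large subunit of cleavage factor Im, was 1.19-fold in replicate 1 and 0.961-fold in replicate 2 in TPM, on both sides of equality. It was 1.59-fold and 1.28-fold in CPM, and 0.888-fold and 0.715-fold with the longest coding transcript, so the order of these genes rests on the length used. NUDT21 was 1.45-fold and 1.05-fold CPSF6 in TPM, and 1.07-fold and 0.775-fold in CPM. NUDT21 was 1.73-fold and 1.01-fold CPSF7 in TPM, and 1.41-fold and 0.827-fold with the longest coding transcript.

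Within the other pairs the same gene was higher in both libraries in TPM. CPSF3 was 2.36-fold and 3.24-fold CPSF2 in TPM in replicates 1 and 2. CPSF1 and CPSF4 were close, with CPSF4 at 0.797-fold and 0.909-fold, and CSTF1 was 0.631-fold and 0.607-fold CSTF3. PCF11 was 0.528-fold and 0.393-fold CLP1, the RNA kinase of the same factor. The Integrator complex, which cuts small nuclear RNAs and promoter-proximal transcripts, holds relatives of the cleavage module: CPSF3 was 0.710-fold and 0.782-fold its relative INTS11, and CPSF2 2.20-fold and 1.73-fold its relative INTS9. These sizes moved with the length used: CPSF3 was 0.318-fold and 0.351-fold INTS11 in CPM, and 0.265-fold and 0.292-fold with the longest coding transcript. CPSF2 was 6.08-fold and 4.77-fold INTS9 in CPM, and 1.29-fold and 1.01-fold with the longest coding transcript. The direction turned in 3 other pairs. In CPM CPSF3 was 0.640-fold and 0.881-fold CPSF2, and PCF11 2.40-fold and 1.78-fold CLP1. With the longest coding transcript CPSF4 was 1.45-fold and 1.65-fold CPSF1.

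**Figure D3:**
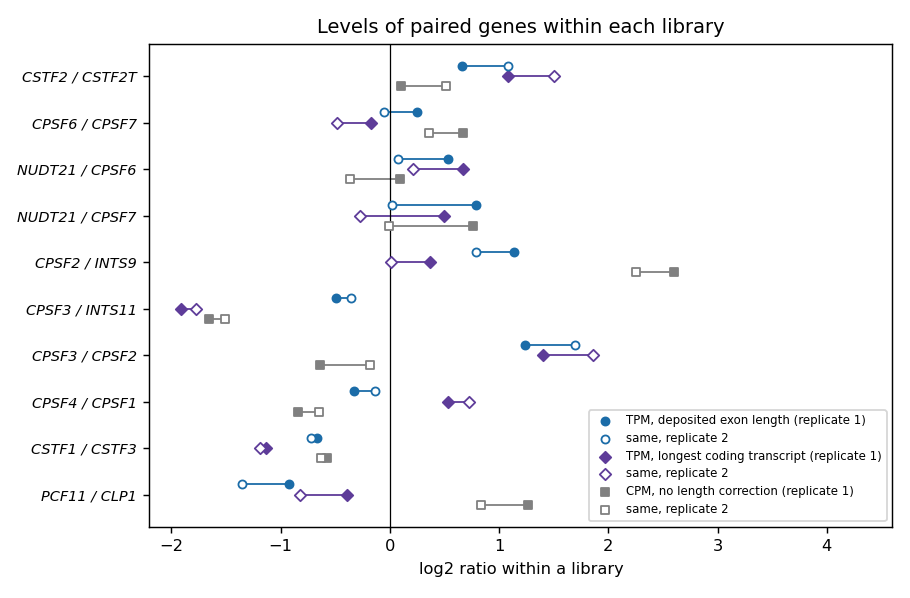
Log2 ratio of the first to the second gene of each pair within a library, for 3 length scales (circles, diamonds and squares), with replicate 1 filled and replicate 2 open. CSTF2 / CSTF2T, CPSF2 / INTS9, CPSF3 / INTS11 and CSTF1 / CSTF3 stay on 1 side of zero on all 3 scales.

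Between the libraries most members differed little, and NUDT21 differed most. On the log2 scale of replicate 1 over replicate 2, with TMM normalisation in edgeR and a prior count of 2, NUDT21 stood at 0.69 (95% counting interval 0.59 to 0.80). The other 9 lay between -0.29 (CSTF2) and 0.29 (CPSF2). Thus 1 of 10 members passed 0.5 log2 in either direction, where 11.7% of the 14704 genes averaging at least 50 counts did, and 0 of 10 passed 1 log2, where 2.06% did. With 1 library on each side there is no p-value. Of the 9 members other than NUDT21, only CPSF3 (-0.34 to 0.003) and CPSF4 (-0.21 to 0.015) had a counting interval reaching both sides of equality. The log2 ratios were also set against the SD that edgeR's trend gives at each gene's count. NUDT21 lay at 2.69 times this SD of the log2 ratio, and the other members at less than 1 SD in either direction. The trend was fitted to these same 2 libraries without GC content, and the share of all genes this far out is not given. In 7 of the 10 members replicate 1 was higher, beside 7347 of those 14704 genes.

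The members that were higher in replicate 1 were mostly those of low GC content. Of the 7 members whose longest coding transcript is under 45% GC, 6 were higher in replicate 1 and CPSF3 was not, with a median log2 ratio of 0.25. Of the other 3, CPSF4 and CSTF2 were higher in replicate 2 and CPSF1 in replicate 1, with a median of -0.10. Across the 10 members Pearson's r between GC content and the ratio was -0.60 and Spearman's rho -0.71, and across 11973 protein-coding genes they were -0.43 and -0.48. These describe genes counted in the same 2 libraries, which are not independent replicates. Protein-coding genes in the GC bin of NUDT21 (transcript GC 37.4%) had a median ratio of 0.32, with quartiles at 0.14 and 0.56. Those in the bin of CPSF6 (37.1%) had a median of 0.47. These bins are neighbours that meet at 37.19% GC, so the centred values depend on where that edge falls. Against the other's bin, NUDT21 (0.69) lies below the upper quartile (0.78) and CPSF6 (0.23) above the lower quartile (0.14). After centring each gene on its GC bin, an alternative chosen after seeing the data, NUDT21 stood at 0.37, CPSF6 at -0.24 and 0 members passed 0.5 log2, where 7.4% of the 11974 genes with a GC value did. After centring, 7 of the 10 members stood above the median of their GC bin. These were not the same 7, as CPSF6 went from 0.23 to -0.24 and CPSF4 from -0.10 to 0.01. The part that GC content plays in the ratios was not tested.

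The other core factors of the machinery spanned a wider range than the members. The 10 genes, SYMPK, WDR33, FIP1L1, CPSF7, CSTF2T, CLP1, PAPOLA, PAPOLG, PABPN1 and RBBP6, were all detected, beside 65.9% of protein-coding genes. They had a median of 16.2 TPM, or 18.7 in replicate 1 and 14.5 in replicate 2. PABPN1, the nuclear poly(A)-binding protein, led with 155 and 139 TPM (147 ± 11.5, SD, n = 2), but 39.3% of its exonic bases overlap other genes, chiefly the readthrough gene BCL2L2-PABPN1. PAPOLG, a second poly(A) polymerase, was lowest with 3.04 and 2.01 TPM (2.53 ± 0.731). PAPOLA, the main nuclear poly(A) polymerase, had 19.5 and 12.9 TPM (16.2 ± 4.65). With the longest coding transcript PAPOLA had 54.3 and 37.0 TPM.

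The partners stood differently beside the members of their own complexes. WDR33, which contacts the hexamer, had 11.98 and 11.3 TPM (11.7 ± 0.466, SD, n = 2) and FIP1L1, which recruits the polymerase, 17.9 and 14.6 (16.3 ± 2.33), both below CPSF1 and CPSF4 in each library. The overlap with other genes is 25.7% of exonic bases for WDR33 and 45.7% for FIP1L1, so both are uncertain. The place of WDR33 also rests on the length used. In CPM it had 84.6 and 83.4, above CPSF4 (66.7 and 70.0) in both libraries. SYMPK, the scaffold of the cleavage module, had 7.95 and 10.9 TPM (9.40 ± 2.06), between CPSF2 and CPSF3. In mean CPM SYMPK (49.2) stood above both CPSF2 (40.1) and CPSF3 (30.0). CPSF7 had 21.5 and 21.3 TPM (21.4 ± 0.137), CLP1, above PCF11 in both libraries, 23.9 and 25.04 (24.5 ± 0.822), CSTF2T 16.7 and 14.3 (15.5 ± 1.67) and RBBP6, which activates cleavage, 21.9 and 15.4 (18.6 ± 4.57). Of these 10 genes, PAPOLA (0.50) and PAPOLG (0.50) lay just past 0.5 log2 towards replicate 1 and SYMPK (-0.54) towards replicate 2, a count of 3 of 10 against the 11.7% of all genes given above. The DESeq2 size factors were 1 in both libraries and so left the counts unscaled. With them PAPOLA and PAPOLG both stood at 0.49, which left 1 of 10 past that limit. After GC centring PAPOLA stood at 0.26, PAPOLG at 0.18 and SYMPK at -0.41, which left 0.

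**Figure D4:**
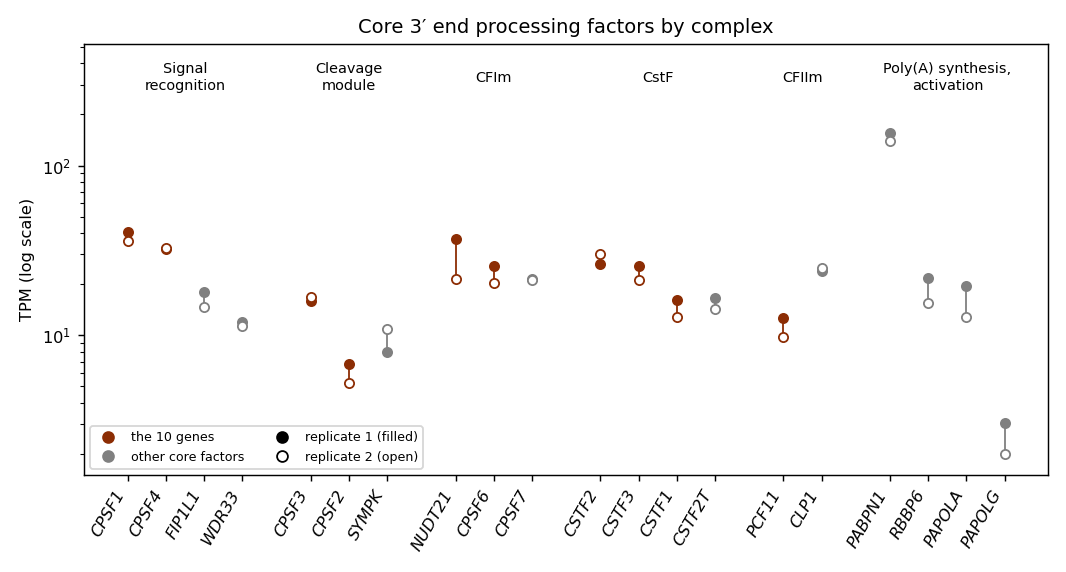
TPM on a log axis of the 10 genes (brown) and 10 other core factors (grey), grouped by complex, with replicate 1 filled and replicate 2 open. Members of cleavage factor Im lie within 1.37-fold of each other in mean TPM and those of the cleavage module within 2.74-fold, while the poly(A) synthesis and activation group runs from PAPOLG (2.53) to PABPN1 (147).

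All 15 Integrator genes were detected, beside 65.9% of protein-coding genes. Their median was 13.0 TPM, from INTS6 (1.44 ± 0.0327, SD, n = 2) to INTS14 (33.7 ± 0.838). INTS11, the endonuclease of that complex, had 22.5 and 21.6 TPM (22.04 ± 0.680), and INTS9, its partner, 3.09 and 3.02 (3.05 ± 0.0485). In both complexes the endonuclease gene had more TPM than the gene of its relative, CPSF3 over CPSF2 and INTS11 over INTS9, though in CPM CPSF3 was the lower of its pair. Of the 15 genes 0 passed 0.5 log2 between the libraries, beside 11.7% of all genes tested.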

How the data were processed

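Per the labels' protocols, total RNA from HEK293T cells was treated with DNase I, reverse transcribed from an oligo(dT) primer, cleared of RNA and primers with a nuclease, sonicated and made into libraries with a single-strand kit. Each deposited file holds 1 library as raw counts, which the authors did not normalise, with Ensembl gene IDs, per the file headers. Per the submitters' processing notes, featureCounts 2.0.3, Trim Galore 0.6.7 and bcl2fastq 2.17 were used with build GRCh38. Not given in the sources used here are the aligner, the annotation release, and how strand and overlaps were treated. Reads over bases shared by genes were not all left out, since MIR939, whose 82 bases all lie in CPSF1 exons, has counts. Whether such reads were counted for both genes was not tested.

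CPM and TPM were computed from the counts, their totals and the deposited exon lengths. Symbols matched 60463 of 60664 IDs. Gene types, transcripts and sequences came from GENCODE 29 on GRCh38, and exon overlap from bedtools 2.31.1. Ratios used TMM factors (1.01 and 0.989) from edgeR 4.0.16 in R 4.3.3, and were tested on simulated data with a constant dispersion and no GC trend. The dispersion trend also came from edgeR and was not tested in that way. DESeq2 1.42.0 size factors, 1 in both libraries, served as an alternative. GC content was binned in 20 classes of protein-coding genes averaging at least 50 counts. The principal transcript was the best by APPRIS rank, then the longest. Named genes were all members, all other core factors, both genes of each pair, the highest and lowest of each further list, and genes overlapping a member. The members and lists were chosen with earlier results of these data known. No sequence of CPSF1 is shown.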

Additional observations from a re-analysis of the deposited data

How the results depend on the processing

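With the longest coding transcript the median was 30.1 TPM for the members and 23.7 for the other core factors, and without length correction 53.6 and 56.5 CPM. Without 1 of the libraries it ran from 20.7 to 25.6 and from 14.5 to 18.7 TPM. The number of members in their place in the order was 2 in CPM, and ran from 6 to 8 without 1 of the libraries. The mean log2 ratio turned to -0.14 for NUDT21 over CPSF6, -0.41 for CPSF3 over CPSF2 and 1.05 for PCF11 over CLP1 in CPM, and to 0.63 for CPSF4 over CPSF1 with the longest coding transcript. Past 0.5 log2 between the libraries, the count of members was 0 when genes overlapped by others over 25% or more were left out, and 0 after GC centring. Of the other core factors 3 passed it, which became 1 with DESeq2 size factors and 0 after GC centring, a count whose alternatives were chosen after seeing the data. Over all genes, 1720 passed 0.5 log2 and 303 passed 1 log2. These became 886 and 129 of the 11974 genes with a GC value after GC centring, 3451 and 776 among genes averaging at least 10 counts, and 11524 and 3429 with no filter on counts. DESeq2 size factors, library totals and a prior count of 0.5 kept each count of members and of all genes past these limits within 1.5 times. No paired analysis was possible because the labels give 1 group.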

Other observations

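Other genes that act at the ends of transcripts, from lists chosen with earlier results known, were also present. Detection of each list stands beside 65.9% of all protein-coding genes. All 3 proteins specific to the U1 snRNP, a particle known to suppress premature cleavage and polyadenylation, were detected at a median of 253 TPM, from SNRPA (65.9 TPM in replicate 1 and 63.0 in replicate 2, mean 64.4 ± 2.08, SD, n = 2) to SNRPC (320 and 333, 326 ± 9.07). All 5 factors of histone mRNA 3′ end processing, which yields ends without a poly(A) tail, were detected. SLBP, the stem-loop binding protein, had 162 and 105 TPM (134 ± 40.1) and LSM11, a subunit of the particle that finds the histone site, 3.39 and 2.58 (2.98 ± 0.572). Of the 5 genes SLBP alone passed 0.5 log2 between the libraries, higher in replicate 1 by 0.53, beside 11.7% of all genes tested.

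All 12 genes of transcription termination were detected, with a median of 12.1 TPM. XRN2, the exonuclease that degrades the RNA left after the cut, was highest with 57.8 and 45.7 TPM (51.7 ± 8.55, SD, n = 2), and CDK13, a kinase of the polymerase tail, lowest with 2.11 and 1.79 (1.95 ± 0.226). Of these 12 genes 0 passed 0.5 log2 between the libraries, beside 11.7% of all genes tested.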
